A study of Mus musculus with 10 samples.

Results

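The genes described here encode the pore-forming and auxiliary subunits of potassium channels (symbols starting with Kcn) and voltage-gated calcium channels (Cacn) and members of the canonical, melastatin and vanilloid groups of transient receptor potential channels (Trpc, Trpm and Trpv, TRP channels for short), as measured in cultured embryonic mouse Wolffian ducts. They were taken by symbol alone: every probe set whose platform symbol starts with Kcn or Cacn, or with Trpc, Trpm or Trpv followed by a digit, with 1 Trpc gene left out by the same rule. This gave 135 genes of 19505 named ones, 90 of potassium, 25 of calcium and 20 of TRP type, each with 1 probe set among 22206. The prefixes also catch Kcnq1ot1, a noncoding RNA transcribed against Kcnq1, Trpc4ap, which encodes a binding partner of a TRP channel, and Trpc5os, an opposite-strand transcript, and these 3 were kept and are counted apart below.

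The ducts came from embryos at 16.5 days post-coitum and were cultured at an air-liquid interface for 72 h. The 10 arrays hold 4 cultures with SAG at 0.5 µM, an agonist of Smoothened that switches hedgehog signalling on, 3 cultures with cyclopamine at 25 µM, a Smoothened inhibitor, and 3 vehicle cultures, for which the protocol names culture medium alone. The labels give no strain or sex, and they do not say whether a culture was 1 duct or a pool, or whether vehicle cultures held the compounds' solvent. The titles call the tissue pronephros while the protocols describe Wolffian ducts. Arrays left out in turn are written S1 to S4 for SAG, C1 to C3 for cyclopamine and V1 to V3 for vehicle. Values are log2 signals, so a difference of 1 is a doubling of signal. Signal depends on each probe set's own response. Where genes are set against the median array signal, or called dim or bright, this describes signal and not amounts of RNA.

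The hedgehog targets Gli1 and Ptch1 followed the labels. Gli1 averaged 13.4 ± 0.15 with SAG, 4.98 ± 0.40 with cyclopamine and 11.9 ± 0.63 with vehicle (SD, n = 4, 3 and 3), and both genes passed in all 3 comparisons. Array medians were 7.55 to 7.70, and cyclopamine replicate 2 stood apart on the second principal component (16.6% of the variance), at -51.7 against 13.0 and 13.6 for the other cyclopamine arrays. The tissue's own markers were there on every array: duct epithelium genes had mean log2 levels of 9.99 to 10.6 on SAG arrays, 12.3 to 13.1 on cyclopamine arrays and 11.1 to 12.0 on vehicle arrays (14 of 15 listed genes measured, 0 in the dimmest 25% of probe sets, whose means lie under 5.19). Smooth muscle genes lay at 11.5 to 11.7, 9.28 to 9.68 and 11.8 to 12.3 in the same order of groups (11 of 11 measured, 9 lower with cyclopamine), and mesenchyme genes at 14.7 to 14.9, 13.5 to 13.8 and 14.4 to 14.6 (9 of 10 measured, 5 lower with cyclopamine). Neuron and glia genes ranged from 6.75 to 8.10, 6.78 to 8.64 and 7.60 to 8.82 (10 of 12 measured), endothelial genes from 10.5 to 11.0, 8.32 to 9.93 and 9.80 to 10.8 (6 of 7), macrophage genes from 9.33 to 10.04, 8.26 to 9.82 and 9.39 to 9.67 (7 of 8), skeletal muscle genes from 5.29 to 5.66, 5.42 to 5.73 and 5.52 to 5.69 (7 of 7) and genes of steroid-making cells from 5.30 to 7.82, 5.04 to 5.48 and 5.002 to 6.38 (5 of 5). The duct epithelium, smooth muscle and mesenchyme markers moved with the channel genes below. Of 14 duct epithelium markers 7 were higher with cyclopamine (median change 1.15). With SAG 2 were lower by adjusted p, 12 of 14 had an unadjusted p under 0.05 by limma, and the median change was -1.33. With cyclopamine 1 of 6 endothelial and 1 of 10 neuron and glia markers were lower too, with median changes of -1.09 and -0.76. The part of any of these markers in the channel gene changes was not tested. In whole ducts, fewer cells of a type and less RNA per cell cannot be told apart.

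Potassium channels set the resting voltage of a cell and bring it back after excitation. Voltage-gated calcium channels turn a change of voltage into calcium entry, which drives contraction in smooth muscle and signalling elsewhere, and TRP channels let calcium or sodium in on stretch, osmotic, chemical or internal calcium cues. In the duct that becomes the epididymis, epithelial channels are known to shape the luminal fluid, while those of the muscle coat serve its contractions.

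Of the 135 genes, 44 (32.6%) had a mean log2 signal above the median array signal of 7.60, against 52.0% of all 19572 named probe sets. By group, 41 exceeded the group's own median with SAG, 39 with cyclopamine and 44 with vehicle. Kcnd1 (7.44) and Kcnk2 (7.55) lay just under the line and Kcnip4 (7.66) and Kcnq1ot1 (7.68) just over it. By subfamily, the line was passed by 11 of 17 auxiliary potassium subunits and 6 of 10 calcium alpha1 pores. Also above it were 4 of 7 calcium- or sodium-activated potassium channels, 4 of 8 Trpm genes and 2 of 15 inward rectifiers. The same held for 3 of 14 tandem-pore channels (Kcnk) and 1 of 6 Trpv genes. Voltage-gated potassium alpha subunits, which include silent ones that form no channel alone, had 4 of 36 above it. The remaining groups had 1 of 4 alpha2delta, 2 of 3 beta and 3 of 8 gamma subunits, 1 of 4 Trpc genes and 2 of the 3 genes that encode no subunit.

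Above-median members whose means did not pass in any comparison included the T-type calcium pore Cacna1g. Its mean log2 signals were 11.8 with SAG, 11.8 with cyclopamine and 11.9 with vehicle. The cyclopamine arrays of Cacna1g were split, at 11.07, 12.81 and 11.51. Replicate 2 was the highest of all 10 arrays and the other cyclopamine arrays the lowest. Trpm7, a cation channel fused to a kinase and needed for magnesium balance, had 13.8, 14.1 and 13.8 in those groups, and the Kv4 partner Kcnip3 had 11.8, 11.7 and 12.0. Kcnmb1, the beta subunit of the large-conductance potassium channel and a smooth muscle gene, had 8.81, 8.91 and 8.87. Its cyclopamine change was 0.04 ± 0.29 (SE), from cyclopamine arrays at 8.22, 9.56 and 8.95. Of all 10 arrays, cyclopamine replicate 1 was the lowest for Kcnmb1 and cyclopamine replicate 2 the highest. Kcnk6, a tandem-pore channel, had 10.2, 9.66 and 10.05. Trpc4ap (14.9, 14.8 and 14.9) and Kcnq1ot1 (7.78, 7.63 and 7.60) did not pass either, and the same held for the dim Trpc5os. The spread between arrays of a group had a median SD over members of 0.23 with SAG, 0.29 with cyclopamine and 0.19 with vehicle.

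**Figure D1:**
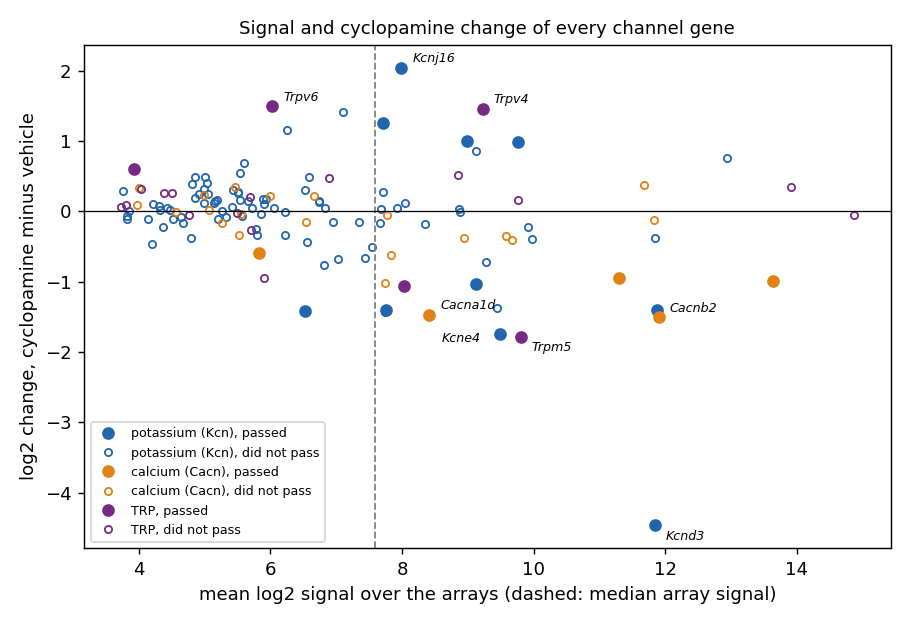
Each point is 1 of the 135 channel genes: the x axis is its mean log2 signal over the 10 arrays and the y axis its log2 change, cyclopamine minus vehicle, with filled points for an adjusted p under 0.05 and the dashed line at the median array signal of 7.60. Of the 20 filled points 16 lie right of the line, and Kcnd3 stands lowest at -4.46.

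Activation was compared with vehicle first. With SAG, 2 of the 135 channel genes passed, 1 higher and 1 lower, and 133 did not (limma, adjusted p under 0.05). That is 1.48% of them, against 0.73% of all 22206 probe sets (0.45% higher and 0.279% lower). By signal, 1 of the 44 above-median members was called, against 1.12% of above-median probe sets, and 1 of the other 91, against 0.335% of the other probe sets. The median change of the members was -0.01, beside 0.01 over all probe sets.

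Kcns3, a silent subunit that forms no channel alone and modifies Kv2 channels, rose. Its log2 signal was 8.02, 8.29, 8.22 and 8.24 on the SAG arrays, against 6.80, 7.26 and 6.55 on the vehicle arrays. The groups were apart, with SAG above, by 1.32 on average (SE 0.19, adjusted p = 0.0127). The call was lost without V1 (adjusted p = 0.0646) or V3 (0.0531). Cyclopamine left Kcns3 at 6.88, 6.91 and 6.37, overlapping the vehicle values, a change of -0.15 ± 0.21 that did not pass.

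Cacna1d, the pore of the L-type calcium channel Cav1.3, was the member that fell with SAG, and it fell with cyclopamine as well. The log2 signal was 8.33, 8.55, 8.31 and 7.78 with SAG, 7.98, 7.65 and 7.74 with cyclopamine, and 9.07, 9.48 and 9.24 with vehicle. Every treated array lay below every vehicle array, while the SAG and cyclopamine arrays overlapped. The change was -1.02 ± 0.19 with SAG (adjusted p = 0.0383) and -1.47 ± 0.20 with cyclopamine (adjusted p = 0.00314), and both rest on the same 3 vehicle arrays. The SAG call was lost without V1 (adjusted p = 0.0886), V2 (0.209), V3 (0.107), S1 (0.0648), S3 (0.0907), S4 (0.0673) or C3 (0.0539), and the cyclopamine call held without any 1 of the 10 arrays.

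Kcnd2 and Trpc5 had their vehicle arrays above the means of both treated groups without passing. Kcnd2, a Kv4 pore of fast transient potassium currents, had 7.83, 6.87, 6.76 and 7.11 with SAG, 6.34, 7.84 and 8.12 with cyclopamine, and 8.84, 8.72 and 9.03 with vehicle. Its changes were -1.72 ± 0.39 with SAG (adjusted p = 0.0862) and -1.43 ± 0.41 with cyclopamine (adjusted p = 0.0797). For SAG it passed with only SAG and vehicle in the fit (adjusted p = 0.0151) or without C1 (0.0150). Trpc5, a receptor-operated cation channel best known from neurons, was at -1.20 ± 0.29 and -0.95 ± 0.31 for SAG and cyclopamine against vehicle. It passed for SAG with only the groups compared (0.0213) or without C3 (0.0230), and for cyclopamine without that array (-1.34, adjusted p = 0.0149).

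Inhibition with cyclopamine reached more members. Against vehicle 7 rose, 13 fell and 115 did not pass, so 14.8% of the channel genes were called, against 5.12% of all probe sets (2.17% higher and 2.95% lower). Among members above the median signal 16 of 44 were called (36.4%), against 8.12% of all probe sets above it, and among the dimmer ones 4 of 91 (4.40%), against 2.08%. The fallers held 3 voltage-gated potassium alpha subunits, among them the silent Kcng3, and 3 KCNE subunits. They also held all 5 calcium channel genes that were called, and 1 Trpc and 1 Trpm gene. The members that rose were 3 Trpv genes and 4 potassium genes of 4 different subfamilies. On the same arrays 9 of 11 smooth muscle markers were lower and 7 of 14 duct epithelium markers higher. Median change over the members was 0.02, equal to that over all probe sets at 2 decimals. The 13 falls became 5, 6 and 7 without vehicle replicate 1, 2 or 3, 8 without cyclopamine replicate 1 or 3 and 13 without cyclopamine replicate 2. The 7 rises became 2, 4 and 2 without vehicle replicate 1, 2 or 3, 4 without SAG replicate 2 or cyclopamine replicate 1, 3 without cyclopamine replicate 3 and 10 without cyclopamine replicate 2. With only cyclopamine and vehicle arrays in the fit 6 fell and 3 rose. None of the fitted changes called here moved by more than 1.5 times when 1 array was left out.

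**Figure D2:**
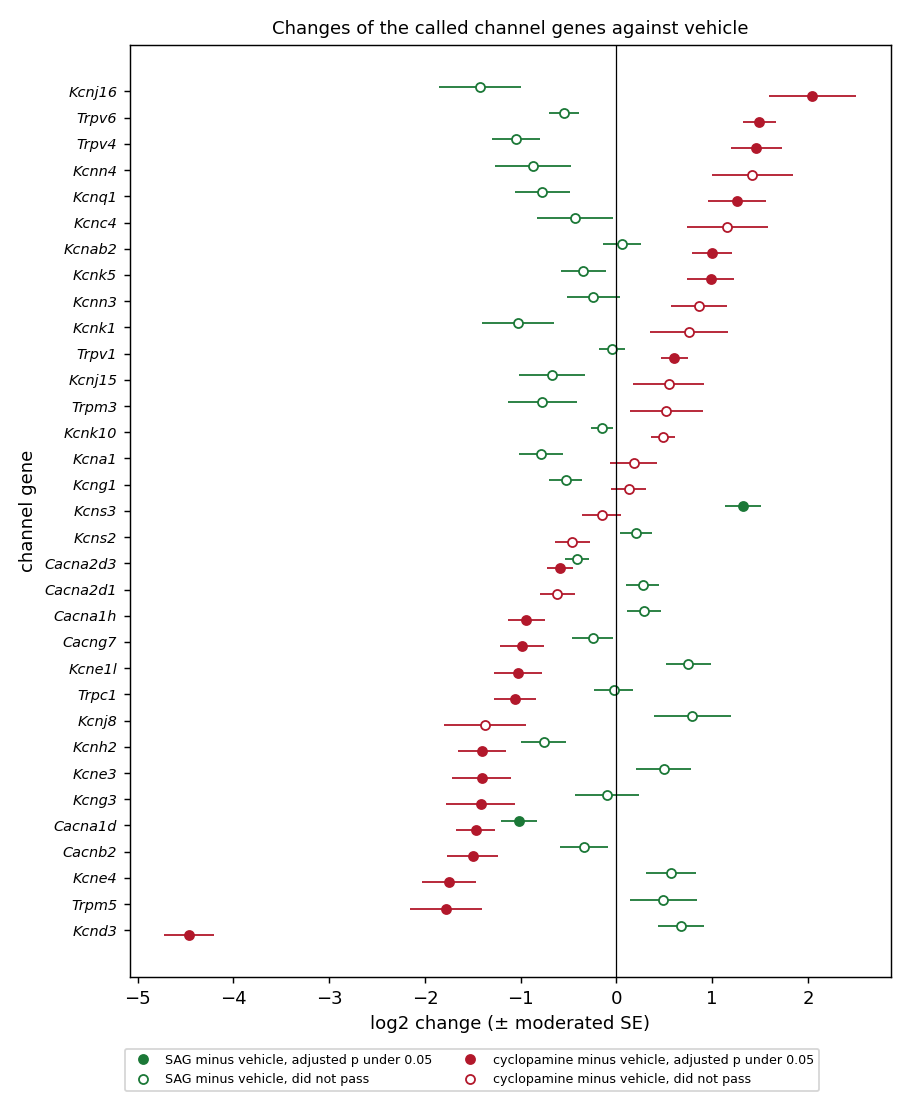
Log2 changes with moderated SE of the 33 channel genes that passed in at least 1 comparison, ordered by the cyclopamine change: green for SAG minus vehicle, red for cyclopamine minus vehicle, filled where the adjusted p was under 0.05. Red points run from -4.46 at Kcnd3 to 2.05 at Kcnj16, and only Kcns3 and Cacna1d have a filled green point.

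Kcnd3, the Kv4.3 pore of transient outward potassium current in heart, brain and smooth muscle, fell furthest among the members. Its log2 signal was 13.56, 13.86, 13.38 and 13.53 on the SAG arrays, 8.17, 8.09 and 9.09 on the cyclopamine arrays and 12.86, 13.20 and 12.68 on the vehicle arrays. The 3 groups did not overlap, with cyclopamine far below the rest. The change with cyclopamine was -4.46 ± 0.26 (SE), 22.1-fold lower (adjusted p = 9.85e-06), and that with SAG 0.67 ± 0.24 (adjusted p = 0.318). Kcnh2, the hERG channel of repolarization, had 11.93, 12.02, 11.81 and 11.59 with SAG, 10.53, 11.67 and 11.38 with cyclopamine and 12.49, 12.63 and 12.67 with vehicle. Vehicle arrays were highest and cyclopamine replicate 1 was the lowest array. It fell by 1.40 on the log2 scale with cyclopamine (adjusted p = 0.0107), and it was at -0.76 ± 0.23 with SAG (adjusted p = 0.227; 0.0375 with only the groups compared). Against cyclopamine SAG was 0.64 higher (adjusted p = 0.115), and 0.88 higher without cyclopamine replicate 2 (adjusted p = 0.0275). Kcng3, another silent modifier of Kv2 channels, had 5.82, 5.57 and 5.32 with cyclopamine and 7.11, 7.03 and 6.83 with vehicle, while its SAG arrays spread from 6.14 to 7.87.

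The Kcnd3 call held without any 1 array, as did that of Kcnh2, which ended with only cyclopamine and vehicle in the fit (adjusted p = 0.0525). The Kcng3 fall (-1.42 ± 0.36, adjusted p = 0.0475) was lost without V1 (0.142), V2 (0.132), V3 (0.0952), S2 (0.0690), S4 (0.0594), C1 (0.0754), C2 (0.0761) or C3 (0.132), and also after another quantile normalization (0.0538) or centring of each array (0.0518). The other called Kv pore, Kcnq1, rose and is given with the members that rose.

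KCNE proteins are small membrane-spanning partners that set the speed and size of Kv currents, among them those of Kcnq1 and Kv4 pores. Of 17 auxiliary potassium subunits measured, 3 fell with cyclopamine, 1 rose and 13 did not pass. Kcne4 had 10.73, 9.89, 10.69 and 10.09 with SAG, 7.46, 8.38 and 8.26 with cyclopamine, and 9.76, 9.62 and 9.96 with vehicle. Its cyclopamine arrays lay apart at the low end, by -1.75 ± 0.28 (3.36-fold, adjusted p = 0.00676), whichever array was left out. Kcne3, which keeps Kcnq1 channels open in transporting epithelia, had 8.33, 8.36, 8.497 and 8.74 with SAG, 7.34, 6.25 and 6.16 with cyclopamine, and 8.12, 8.33 and 7.51 with vehicle. Kcne1l, also called Kcne5, had 9.76, 9.77, 10.35 and 9.64 with SAG, 7.54, 8.51 and 8.24 with cyclopamine, and 9.05, 9.22 and 9.12 with vehicle. In each of these 3 genes the mean was highest with SAG and lowest with cyclopamine, and the cyclopamine arrays overlapped with no other group.

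Kcne3 fell by 1.41 on the log2 scale (adjusted p = 0.0269) and Kcne1l by 1.03 (adjusted p = 0.0418). With SAG they were at 0.50 ± 0.29 and 0.75 ± 0.23 and did not pass (adjusted p = 0.589 and 0.237). The Kcne3 call was lost without V1 (adjusted p = 0.0970), V2 (0.101), C2 (0.0575) or C3 (0.0852). That of Kcne1l was lost without V1 (0.104), V2 (0.129), V3 (0.103), S1 (0.0540), S2 (0.0615), S4 (0.0542), C1 (0.0980) or C3 (0.0757), after another quantile normalization (0.0510) and after centring (0.0581). Both ended with only the groups compared in the fit (0.0976 for Kcne3 and 0.0874 for Kcne1l).

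Among 25 calcium channel genes 5 fell with cyclopamine and 20 did not pass. Cacnb2, a cytoplasmic beta subunit that carries the pore to the membrane, had 12.33, 12.29, 12.15 and 11.82 with SAG, 10.52, 11.63 and 10.81 with cyclopamine, and 12.54, 12.73 and 12.20 with vehicle. Cyclopamine arrays were lowest, with replicate 2 nearest the others. The fall was -1.50 ± 0.27 (2.83-fold, adjusted p = 0.0108). Cacna1h, the T-type pore Cav3.2 that opens near resting voltage, had 11.71, 11.62, 11.87 and 11.81 with SAG, 10.19, 10.73 and 10.65 with cyclopamine, and 11.77, 11.13 and 11.49 with vehicle. SAG and vehicle arrays overlapped and the cyclopamine arrays lay below both. It fell by 0.94 on the log2 scale (adjusted p = 0.0210). Cacna1d, above, was the other pore among the 5.

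Cacng7, which belongs to the gamma subunits and is known to escort AMPA-type glutamate receptors, fell by 0.98 on the log2 scale (SE 0.23, adjusted p = 0.0358). The alpha2delta subunit gene Cacna2d3 had 5.49, 5.66 and 5.61 with cyclopamine, against 6.24, 6.21 and 6.08 with vehicle, in the dim part of the array, and fell by 0.59. The Cacnb2 call held without any 1 array. That of Cacna1h was lost without V1 (adjusted p = 0.0815), V3 (0.0656) or C1 (0.0635). That of Cacng7 was lost without V1 (0.128), V2 (0.103), V3 (0.0580), S2 (0.0541), S3 (0.0545), C1 (0.105) or C3 (0.106). That of Cacna2d3 was lost without V1 (0.108), V2 (0.103), V3 (0.0637), S2 (0.0524), C1 (0.0968) or C3 (0.0724), after centring (0.0513) and with an intensity-dependent prior (0.0580). Cacna1h (0.0828), Cacng7 (0.102) and Cacna2d3 (0.0770) also ended with only the groups compared.

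Cacna1c, the Cav1.2 pore that carries most calcium entry in smooth muscle, did not pass, with 10.23, 9.89, 9.71 and 10.20 for SAG, 8.69, 10.48 and 8.55 for cyclopamine and 9.48, 9.80 and 9.66 for vehicle. Cyclopamine replicate 2 was the highest of all 10 arrays and the other cyclopamine arrays the lowest. The change was -0.41 ± 0.41 with that array (adjusted p = 0.652) and -1.03 without it (adjusted p = 0.0117). Cacng4 showed the opposite layout, with 12.43, 10.72 and 12.68 for cyclopamine and 11.64, 11.79 and 11.26 for vehicle, a change of 0.38 ± 0.42, and 0.99 without replicate 2 (adjusted p = 0.0262). Kcnt2, a sodium-activated potassium channel, was at -0.73 ± 0.28, and at -1.06 without C2 (adjusted p = 0.0165).

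TRP channels moved both ways with cyclopamine. Of 6 Trpv genes 3 rose and 3 did not pass, while 1 of 8 Trpm and 1 of 4 Trpc genes fell. Trpv6, a calcium-selective channel that takes up luminal calcium in gut and, in the mouse, in the epididymis, had 5.48, 5.47, 4.90 and 5.18 with SAG, 7.39, 7.19 and 7.30 with cyclopamine, and 5.66, 5.91 and 5.83 with vehicle. The 3 groups did not overlap. It rose by 1.49 ± 0.17 (2.82-fold, adjusted p = 0.00127). Trpv4, opened by swelling and warmth, had 7.72, 8.55, 8.11 and 8.27 with SAG, 10.42, 10.47 and 11.12 with cyclopamine, and 9.41, 9.45 and 8.76 with vehicle. Again no group overlapped another. It rose by 1.46 ± 0.27 with cyclopamine (adjusted p = 0.0125) and was at -1.04 ± 0.25 with SAG (adjusted p = 0.107). Both Trpv calls held without any 1 array.

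Trpv1, the capsaicin receptor, had 4.34, 4.21 and 4.55 with cyclopamine and 3.60, 3.99 and 3.68 with vehicle, all under 5.19, the level that bounds the dimmest 25% of probe sets. The call (0.61 ± 0.14, adjusted p = 0.0382) was lost without V1 (0.134), V3 (0.114), S2 (0.0585), S3 (0.0614), S4 (0.0542), C1 (0.0827) or C3 (0.112), after another quantile normalization (0.0666) and with only the groups compared (0.124). Trpm5, a sodium channel opened by internal calcium and known from taste cells, had 11.14, 10.32, 10.60 and 10.48 with SAG, 8.74, 7.34 and 9.004 with cyclopamine, and 10.35, 9.90 and 10.19 with vehicle. Cyclopamine replicate 2 was the lowest array and SAG overlapped vehicle. The change with cyclopamine was -1.78 ± 0.38 (3.44-fold lower, adjusted p = 0.0228). Trpc1, a widely expressed subunit of receptor-operated cation channels, had 7.38, 7.23 and 7.27 with cyclopamine, against 8.41, 8.41 and 8.24 with vehicle, and fell by 1.06 (adjusted p = 0.0221). The Trpm5 call was lost without V1 (adjusted p = 0.0896), V2 (0.0522) or V3 (0.0697) and with only the groups compared (0.0759), and that of Trpc1 without V1 (0.0815), V2 (0.0752), V3 (0.0539), C1 (0.0513) or C3 (0.0641).

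Potassium genes that rose with cyclopamine were led by Kcnj16, the Kir5.1 subunit that pairs with other inward rectifiers in kidney tubules. It had 6.13, 6.42, 6.50 and 7.04 with SAG, 10.05, 9.13 and 10.79 with cyclopamine, and 7.43, 8.89 and 7.52 with vehicle. No group overlapped another, and vehicle replicate 2 came closest to the cyclopamine arrays. The rise was 2.05 ± 0.46 (4.13-fold, adjusted p = 0.0294). Kcnq1, a slow Kv pore that also serves transporting epithelia, had 6.40, 7.16, 7.00 and 6.93 with SAG, 9.05, 8.21 and 9.46 with cyclopamine, and 7.49, 7.99 and 7.46 with vehicle. The groups were again separate, and the rise was 1.26 ± 0.31 (adjusted p = 0.0416). The noncoding Kcnq1ot1, which overlaps Kcnq1 on the other strand, was at 0.03 ± 0.24.

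Kcnab2, a cytoplasmic Kv beta subunit, had 9.90, 9.80 and 9.30 with cyclopamine and 8.57, 8.71 and 8.74 with vehicle, and Kcnk5, the alkaline-activated TASK-2 channel of kidney tubules, 10.13, 11.00 and 10.63 against 9.64, 9.88 and 9.29. They rose by 1.00 ± 0.21 (adjusted p = 0.0222) and 0.98 ± 0.25 (adjusted p = 0.0488). The Kcnj16 call was lost without V1 (adjusted p = 0.114), V3 (0.0974), C1 (0.0751) or C3 (0.0857), and that of Kcnab2 without V1 (0.0868), V2 (0.0650), V3 (0.0588) or C1 (0.0727). The Kcnq1 call was lost without V1 (0.136), V2 (0.0616), V3 (0.123), S2 (0.0548), S3 (0.0632), S4 (0.0617), C1 (0.110) or C3 (0.117). That of Kcnk5 was lost without V1 (0.127), V2 (0.0707), V3 (0.151), S1 (0.0654), S2 (0.0669), S4 (0.0667), C2 (0.104) or C3 (0.117). With only the groups compared, Kcnj16 (0.0948), Kcnq1 (0.102) and Kcnk5 (0.107) ended as well.

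**Figure D3:**
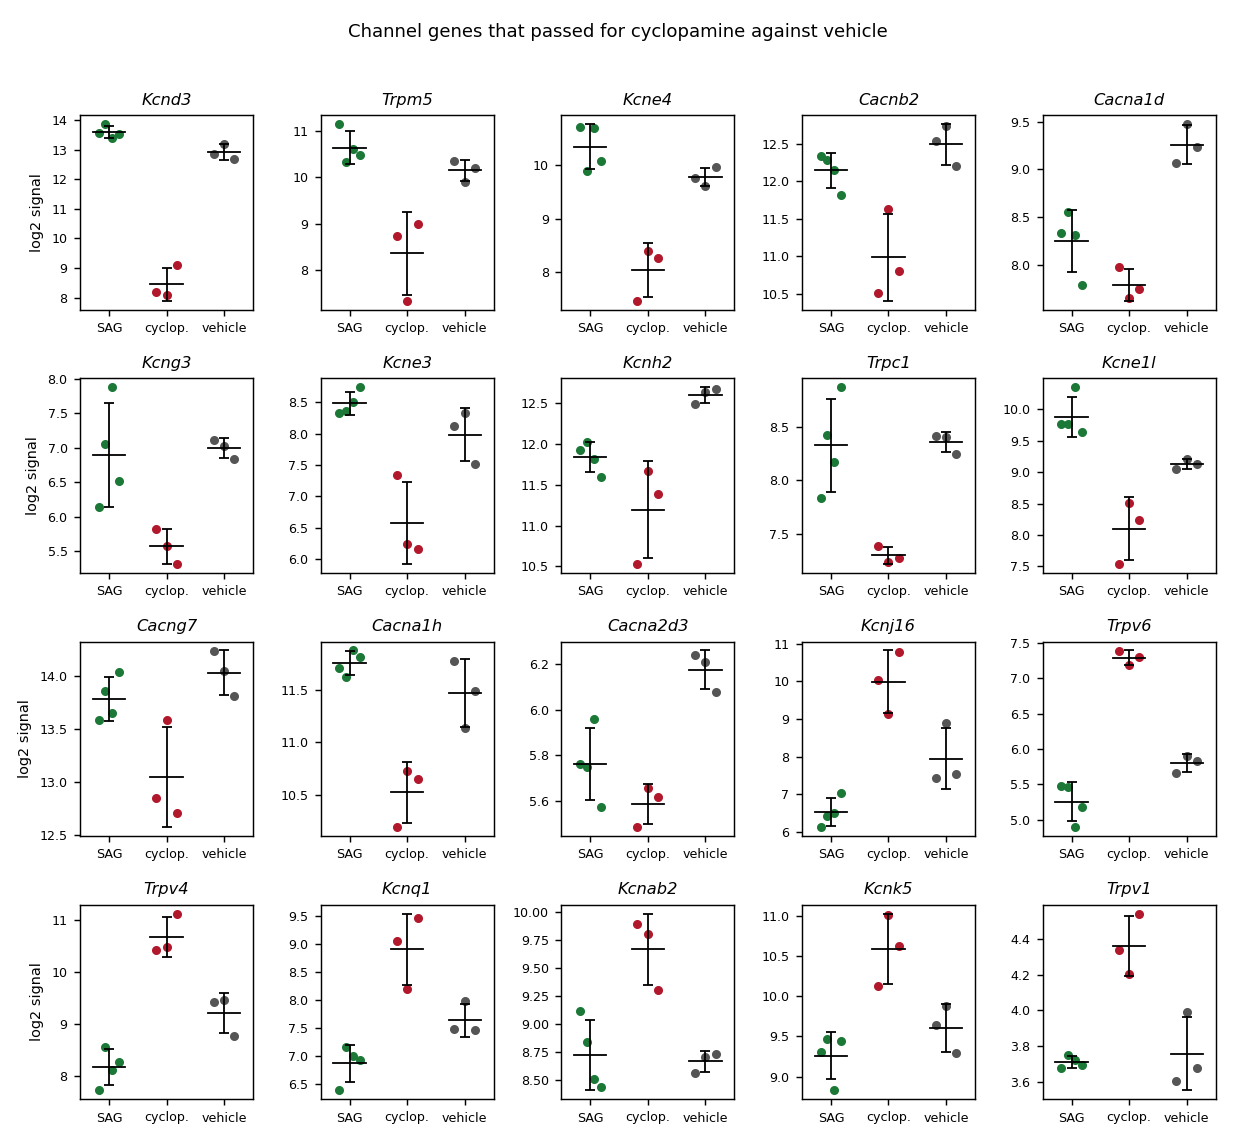
Log2 signal on each array of the 20 channel genes that passed for cyclopamine against vehicle, falls first, with SAG, cyclopamine (cyclop.) and vehicle arrays from left to right, the bar at the group mean and whiskers of 1 SD (n = 4, 3 and 3), on axes scaled to each gene. The cyclopamine arrays of Kcnd3 sit between 8.09 and 9.09, below all others, and those of Trpv6 between 7.19 and 7.39, above all others.

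The stretches just upstream of the start sites are shown for 4 members that moved with cyclopamine, Kcnd3 and Kcne4 among those that fell and Trpv4 and Trpv6 among those that rose, since GLI proteins, the end points of the hedgehog pathway, bind DNA at sites that hold the letters CCACCCA. Each is the 250 bases before the RefSeq start site on GRCm38.p6, written 5′ to 3′ along the gene in lower case, with CCACCCA on either strand in capitals (TGGGTGG is its other strand). The windows are chr3:105451640-105451889 on the plus strand, chr1:78816661-78816910 on the plus strand, chr5:114658422-114658671 on the minus strand and chr6:41636406-41636655 on the minus strand.
Kcnd3: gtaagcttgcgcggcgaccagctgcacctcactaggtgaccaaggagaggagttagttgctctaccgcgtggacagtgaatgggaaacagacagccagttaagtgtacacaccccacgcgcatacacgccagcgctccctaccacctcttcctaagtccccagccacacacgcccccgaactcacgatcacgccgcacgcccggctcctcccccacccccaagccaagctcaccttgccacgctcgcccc
Kcne4: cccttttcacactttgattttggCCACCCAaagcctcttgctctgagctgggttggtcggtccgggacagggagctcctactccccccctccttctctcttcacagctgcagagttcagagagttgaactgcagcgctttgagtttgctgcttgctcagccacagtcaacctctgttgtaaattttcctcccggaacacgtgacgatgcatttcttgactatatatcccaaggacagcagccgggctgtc
Trpv4: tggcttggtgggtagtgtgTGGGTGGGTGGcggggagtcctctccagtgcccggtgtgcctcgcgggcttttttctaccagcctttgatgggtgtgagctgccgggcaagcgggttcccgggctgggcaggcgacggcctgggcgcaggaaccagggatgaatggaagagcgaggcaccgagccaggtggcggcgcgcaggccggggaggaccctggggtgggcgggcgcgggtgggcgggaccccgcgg
Trpv6: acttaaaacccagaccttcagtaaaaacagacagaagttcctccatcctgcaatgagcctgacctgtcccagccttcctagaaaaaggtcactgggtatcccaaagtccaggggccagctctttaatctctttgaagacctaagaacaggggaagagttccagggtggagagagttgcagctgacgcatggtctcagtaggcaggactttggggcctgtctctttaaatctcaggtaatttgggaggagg

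Kcne4 holds 1 match, starting 227 bases before its start site, and Trpv4 holds 2 overlapping ones on the other strand, while the windows of Kcnd3 and Trpv6 hold 0. Counted per gene over such 250-base windows, the 7 letters were found in 18 of 107 matched channel genes (16.8%), against 9.29% of all 27025 genes. They were in 2 of 12 matched genes that fell with cyclopamine (16.7%, Cacnb2 and Kcne4), a share close to that of all channel genes, and in 2 of 6 that rose (Kcnab2 and Trpv4). By window, they were in 13.2% of 144 channel gene windows and 8.11% of all 32851. The longer GLI sequence GACCACCCA, which contains the shorter one, was in 1 of the 107 channel genes (0.935%), which was not among those called with cyclopamine, against 0.255% of all genes. The CArG box of smooth muscle genes was in 2 of the 107 (1.87%), of which Trpv1 was called with cyclopamine, against 1.62% of all genes. These counts describe letters within 250 bases, not binding.

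The treated groups were then set against each other, which shares arrays with both comparisons above. Of 135 members 13 were higher with SAG, 16 lower and 106 did not pass (21.5%, against 11.3% of all probe sets, 5.42% higher and 5.92% lower). Among above-median members 18 of 44 were called (40.9%), against 18.0% of above-median probe sets, and among the rest 11 of 91 (12.1%), against 4.59%. Of the 20 genes called for cyclopamine against vehicle 16 were called here too (80.0%), which is 55.2% of the 29. A further 12 passed in this comparison alone, and 3 (Cacna2d3, Cacng7 and Kcnh2) passed for cyclopamine against vehicle alone. In all, 33 members passed in at least 1 comparison and 102 in none. Of the 29 calls, 20 held without any 1 array.

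Kcnd3 again differed most, at 5.14 ± 0.24 higher with SAG than with cyclopamine (35.1-fold, adjusted p = 9.01e-07). Kcne4 (2.32 ± 0.26), Trpm5 (2.27 ± 0.35), Kcne3 (1.902 ± 0.29), Kcne1l (1.78 ± 0.23), Kcns3 (1.48 ± 0.19) and Cacna1h (1.23 ± 0.18) were also higher with SAG (adjusted p from 0.000291 to 0.00186). Kcnj16 was 11.1-fold lower with SAG (-3.47 ± 0.43, adjusted p = 0.000442). Trpv4 (-2.50 ± 0.25, adjusted p = 0.000143), Trpv6 (-2.04 ± 0.16, adjusted p = 2.98e-05) and Kcnq1 (-2.03 ± 0.29, adjusted p = 0.00105) were lower with SAG as well. The calls of all the genes just named held without any 1 array.

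Among the genes that passed in this comparison alone, Kcnj8, the Kir6.1 pore of ATP-sensitive potassium channels in vascular muscle and pericytes, had 10.62, 10.52, 10.56 and 9.62 with SAG, 8.83, 8.62 and 7.05 with cyclopamine, and 9.82, 9.23 and 9.56 with vehicle. SAG arrays lay above all cyclopamine arrays, with SAG replicate 4 down among the vehicle values. The difference was 2.16 ± 0.40 (4.48-fold, adjusted p = 0.00530). Endothelial markers, of the vessels such cells surround, lay at 10.5 to 11.0 on SAG arrays and 8.32 to 9.93 on cyclopamine arrays. Of these, 3 of 6 were higher with SAG, as were 8 of 11 smooth muscle, 7 of 9 mesenchyme and 2 of 7 macrophage markers. In the same comparison 12 of 14 duct epithelium markers were lower with SAG. The part of any of these markers in the Kcnj8 difference was not tested. Cacna2d1, an alpha2delta subunit that brings calcium pores to the membrane, was higher with SAG by 0.89 ± 0.17 (adjusted p = 0.00709), and the dim silent subunit Kcns2 by 0.66 ± 0.17 (adjusted p = 0.0286).

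Lower with SAG in this comparison alone were 9 potassium and TRP genes. Kcnn4, a calcium-activated potassium channel of intermediate conductance found in epithelia and blood cells, had 5.92, 6.39, 6.001 and 6.31 with SAG, 8.79, 7.22 and 9.32 with cyclopamine, and 6.75, 7.27 and 7.05 with vehicle. Cyclopamine replicate 2 lay among the vehicle arrays and the other cyclopamine arrays far above them. The difference between SAG and cyclopamine was -2.29 ± 0.39 (adjusted p = 0.00360), and cyclopamine against vehicle was at 1.42 ± 0.42, which did not pass, and at 2.03 without replicate 2 (adjusted p = 0.00100). Kcnk1, the TWIK-1 tandem-pore channel, had 11.57, 12.46, 12.05 and 12.26 with SAG, 14.16, 12.94 and 14.53 with cyclopamine, and 13.08, 13.69 and 12.57 with vehicle. Its SAG arrays were the lowest, and cyclopamine overlapped vehicle. The difference was -1.79 ± 0.38 (adjusted p = 0.0111).

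The other 7 were Kcnc4 (-1.59), Trpm3 (-1.29), Kcnj15 (-1.21), Kcnn3 (-1.10), Kcna1 (-0.97), Kcng1 (-0.66) and Kcnk10 (-0.64), with adjusted p from 0.00523 for Kcnk10 to 0.0461 for Kcnj15. Kcnj15, the Kir4.2 partner of Kcnj16, overlapped between the groups, with 5.15 on cyclopamine replicate 2 and 5.30 on SAG replicate 3. Kcnk10, the stretch-gated TREK-2, had 7.06, 6.88 and 7.00 with cyclopamine and 6.59, 6.51 and 6.38 with vehicle, and against vehicle it missed the threshold (0.49 ± 0.13, adjusted p = 0.0510) but passed after another quantile normalization (0.0493), centring (0.0360), the filter on dim probe sets (0.0383) or without C2 (0.0495).

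Calls of this comparison that ended with an array left out were those of 9 genes. Kcnj15 lost its call without V1 (adjusted p = 0.0630), V2 (0.0625), V3 (0.0647), S1 (0.0813), S2 (0.117), S3 (0.0596), S4 (0.0901), C1 (0.164) or C3 (0.169). Trpm3 lost it without V1 (0.0600), V2 (0.0542), V3 (0.0585), S2 (0.0845), S3 (0.0718), C1 (0.142), C2 (0.0533) or C3 (0.0925), where S4 was the lowest array (7.17, with the remaining SAG values between 8.28 and 9.08). The Kcng1 call was lost without S2 (0.0541), S3 (0.0816), S4 (0.0601), C1 (0.118) or C3 (0.0804), and Kcns2 without S2 (0.0599), S3 (0.0716), S4 (0.0716) or C1 (0.114). That of Kcna1 was lost without S2 (0.0544), S4 (0.0533), C1 (0.0536) or C3 (0.0656), and Kcnc4 without S2 (0.0679), S4 (0.0611), C2 (0.0743) or C3 (0.103). That of Kcng3 was lost without S2 (0.0701), C2 (0.0541) or C3 (0.0984), Cacnb2 without C1 (0.0525) or C3 (0.0523), and Kcnn3 without C1 (0.103) or C2 (0.0544). With SAG and cyclopamine arrays alone in the fit, Kcng3 (0.0631), Kcnj15 (0.0893), Kcnn3 (0.0502) and Trpm3 (0.0810) did not pass.

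**Figure D4:**
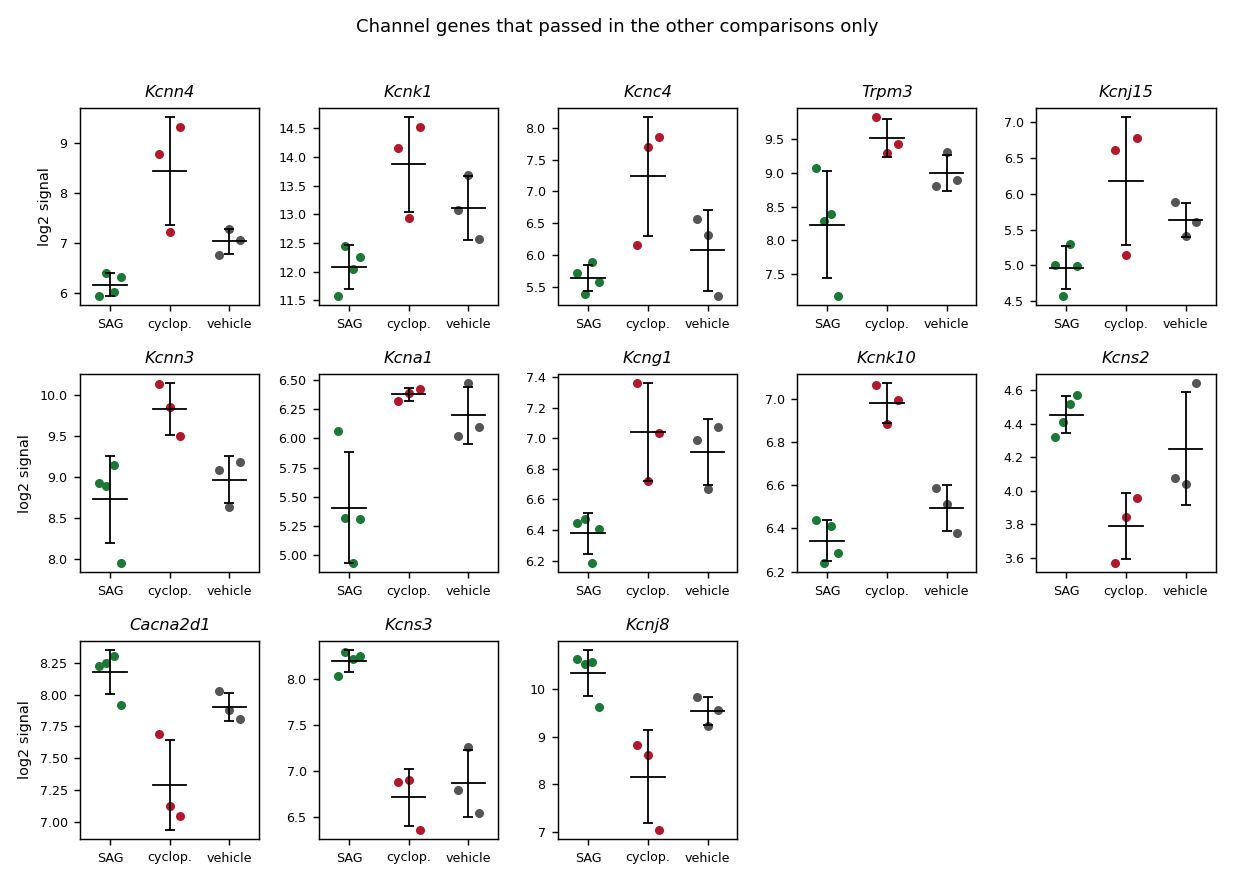
Log2 signal on each array of the 13 channel genes that passed only for SAG against cyclopamine or, at Kcns3, for SAG against vehicle as well, with groups, bars and whiskers as in the plot of the 20 genes called with cyclopamine. Kcns3 has its 4 SAG arrays between 8.02 and 8.29 and all other arrays at 7.26 or lower, while Kcnn4 has cyclopamine replicate 2 at 7.22, near the vehicle arrays.

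Genes that work with these channels were read from 3 lists. Of 15 measured partner subunits and channel inhibitors 0 passed with SAG by limma (3 had an unadjusted p under 0.05), and with cyclopamine 2 fell and 13 did not pass. The fallers were Dpp6 and Lrrc55. Dpp6, the transmembrane partner of Kv4 pores such as Kcnd3, was at -2.34 ± 0.26 (adjusted p = 0.00105). Lrrc55, a gamma subunit of large-conductance potassium channels, was at -1.97 ± 0.40 (adjusted p = 0.0189). With SAG, Dpp6 was at -1.02 ± 0.24 (adjusted p = 0.106) and Lrrc55 at 1.59 ± 0.37 (adjusted p = 0.0953), beside 0.67 ± 0.24 for Kcnd3. Rrad, an inhibitor of voltage-gated calcium channels, was at 1.17 ± 0.30 with cyclopamine (adjusted p = 0.0515). Of 25 genes for calcium stores, entry and extrusion 0 passed with SAG by limma (1 at an unadjusted p under 0.05) and 2 fell with cyclopamine, the plasma membrane calcium pump gene Atp2b1 (-0.86 ± 0.13, adjusted p = 0.00559) and Casq2, a calsequestrin that buffers stored calcium (-1.13 ± 0.24, adjusted p = 0.0258). Of 38 other cation and chloride channel genes 0 passed with SAG by limma (6 at an unadjusted p under 0.05), and with cyclopamine 2 rose, 2 fell and 34 did not pass. Clcn5, an endosomal chloride-proton exchanger of kidney tubules (0.89 ± 0.13, adjusted p = 0.00467), and the lysosomal channel gene Mcoln1 (0.54 ± 0.14, adjusted p = 0.0484) rose, while Pkd1, polycystin-1 (-0.99 ± 0.20, adjusted p = 0.0200), and the sodium channel gene Scn1a (-1.12 ± 0.28, adjusted p = 0.0446) fell. At an unadjusted p under 0.05 by limma with cyclopamine were 6 of the 15 partners, 5 of the 25 calcium genes and 17 of the 38 others. Over all 22206 probe sets, 5.12% passed with cyclopamine by adjusted p (2.17% higher and 2.95% lower) and 0.73% with SAG. Results with an array left out are not given for these lists. Median cyclopamine changes of these lists were 0.04, -0.09 and -0.07, beside 0.02 over all probe sets.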

How the data were processed

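The deposited table holds the authors' processed log2 signals of 22206 probe sets on 10 Affymetrix arrays, and per the labels' protocols 100 ng of total RNA with an integrity number of at least 7 was labelled by the GeneChip WT Plus kit. The log2 scale was read from the range of the deposited values (2.95 to 18.7), and the sources used here name no summarization, normalization or genome build. The platform annotation named 19572 probe sets with 1 symbol each and left 2634 unnamed, and all 135 members matched RefSeq (GRCm38.p6) by identifier with no change of symbol. Members and lists were chosen with earlier results of these data known.

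In R 4.3.3, limma 3.58.1 fitted a mean per group to all probe sets and 10 arrays (7 residual and 3.70 prior degrees of freedom), with two-sided tests and p-values adjusted by Benjamini-Hochberg across the whole table, called under 0.05. SE is moderated, and no filter was applied. The labels call the cultures biological replicates without saying what separates them. Eligible for naming were members that passed, the 3 brightest of each subfamily and up to 4 genes of each list by smallest p. Several of the brightest that did not pass, such as Kcnip1, Trpm4 and Cacnb1, are not described above. Kcnmb1 was added after its values were seen, and Kcnd1, Kcnk2 and Kcnip4 only for lying near the median signal. Same-numbered arrays of different groups deviated together with r from -0.19 to 0.24 over 9 pairs, so numbers were not taken as pairs. The fit was tested on simulated data with known changes, drawn from each probe set's own spread. Over the 3 comparisons it recovered 5.2% to 6.8% of log2 changes of 0.5. For changes of 1 it recovered 55.2% to 62.8%, and for changes of 2 91.6% to 94.8%. A member that did not pass may therefore still have changed by such small amounts. Each simulated run changed far fewer probe sets than passed in the comparisons with cyclopamine. The adjustment was stricter there, so the shares recovered may be too low for those comparisons. Alternatives were another quantile normalization, median centring, a filter on the dimmest 25%, an intensity-dependent prior, a fit of the compared groups alone, the replicate number as a block and leaving out each array.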

Additional observations from a re-analysis of the deposited data

Results flagged for a closer look

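Kcnj8 was at 9.62 on SAG replicate 4, against 10.5 to 10.6 on the other SAG arrays, a gap of 0.894 of the range of the 4 arrays. It was the only value among the 55 channel genes eligible for naming whose distance from its group exceeded Dixon's critical value for 4 arrays. Chance alone gives about 1 in 20 per gene, so 1 flag in 55 genes is no more than chance would give. Groups of 3 arrays were not examined. The call of Kcnj8 for SAG against cyclopamine held without that array.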

How the results depend on the processing

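The number of arrays limits the precision. Whichever array was left out, 7 of 20 calls of channel genes held for cyclopamine against vehicle, 20 of 29 for SAG against cyclopamine and 0 of 2 for SAG against vehicle, and none of the directions of called channel genes turned under the alternatives run. With only the groups compared in the fit, 3 channel genes were higher and 6 lower for cyclopamine against vehicle and 4 were lower for SAG against vehicle, and 566 and 296 probe sets passed. With the replicate block, 0 channel genes were higher and 0 lower with SAG (32 probe sets), 3 higher and 8 lower with cyclopamine (653), and 11 higher and 9 lower for SAG against cyclopamine (1613); the block ended 20 of 51 calls of channel genes over the 3 comparisons, with numbers that only name the samples. Another quantile normalization ended 3 of the 51 calls, centring 3, the intensity-dependent prior 1 and the fit of compared groups 15. The dim filter tested 95 of the members and kept 13 falls and 7 rises in number for cyclopamine against vehicle. The rises were not all the same genes, since the filter removed Trpv1 and Kcnk10 passed under it. Averaging a gene's probe sets was not run, since each member has 1. With each array left out, the counts for SAG against vehicle were 0 to 1 higher, 0 to 2 lower and 45 to 339 probe sets, and for cyclopamine against vehicle 2 to 10 higher, 5 to 13 lower and 485 to 1471 probe sets. For SAG against cyclopamine they were 11 to 16 higher and 11 to 16 lower. The 44 members above the median signal were 43 or 44 with an array left out and 39 to 44 by group.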
